A study of Mus musculus with 5 samples.

Results

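The genes examined here are the potassium and calcium channel genes of the mouse, taken as every protein-coding gene of the NCBIM37 annotation whose symbol starts with *Kcn* or *Cacn*. There are 122 of them among 22380 protein-coding genes, with 96 *Kcn* and 26 *Cacn* gene models and 120 distinct symbols, as *Kcnb2* and *Kcnh8* have more than one gene model each. Symbols alone decide which genes belong to the set, and no measured value enters the rule. The set itself was taken up with earlier results of these data known. Each gene was given a regulatory domain, made of the 5 kb before the gene start and the 1 kb after it, and lengthened on both sides until it met the same interval of the next protein-coding gene, by at most 1 Mb. A gene counts as having a *Paupar* peak when the midpoint of a peak lies in its domain, and a peak can lie in the domains of neighbouring genes.

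The peaks come from CHART-Seq in N2A cells, a mouse neuroblastoma line, and mark DNA that is recovered together with the long non-coding RNA *Paupar* when the RNA is captured from crosslinked chromatin with biotinylated antisense oligonucleotides. The study made 2 pull-downs of *Paupar*, 2 control pull-downs with a non-targeting *LacZ* oligonucleotide and 1 library of input DNA, all from N2A cells for which the labels name no treatment. The deposited result is a single list of 2849 peaks on mm9, the assembly that NCBIM37 denotes, each with a position and a score. It holds no value per library, so no value below has a replicate error, the read depth behind a peak is unknown, and the intervals cover counting error only.

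Potassium channels let potassium leave the cell or, for inward rectifiers, hold the membrane near rest, and so end action potentials and set excitability. Voltage-gated calcium channels open on depolarisation and couple electrical activity to transmitter release, contraction and transcription. In both groups, pore-forming subunits make the channel, whereas auxiliary subunits alter its gating, its trafficking or its sensitivity to ligands, and neurons use many members of each.

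The sequences on which the pull-down rests are the 4 oligonucleotides that capture *Paupar*, shown here because stretches of the same letters were then sought in the channel peaks. They are written 5′ to 3′.
PauparCHART254: ggcttaagtccacccctggattcg
PauparCHART428: gcctggaactagatcaaggcagag
PauparCHART2041: ctctcagaaactgcgatacaaaag
PauparCHART2067: gaggcctagtcaaaatatctccac

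Of the 122 channel genes, 40 had at least 1 *Paupar* peak in their regulatory domain (32.8%, 95% Wilson interval 25.1 to 41.5%). Over all protein-coding genes the share was 16.4%, and over the 22258 genes that are not channel genes it was 16.3% (3636 genes). The interval of the channel genes does not reach the share of the other genes. Potassium and calcium channel genes had similar shares, with 31 of 96 *Kcn* genes (32.3%, interval 23.8 to 42.2%) and 9 of 26 *Cacn* genes (34.6%, interval 19.4 to 53.8%). Of the genes with a peak, 22 had 1, 9 had 2 and 9 had 3 or more. The 9 genes with 3 or more peaks are 7.38% of the channel genes, compared with 1.66% of all protein-coding genes. Among these 9, *Kcnk5* and *Kcnk16* have the same peaks, and *Kcnj6* and *Kcnj15* have some in common. This share was not compared among genes of similar domain length.

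Channel genes also have long domains. Their median domain was 198.2 kb, against 89.2 kb for the other genes, and their median gene length was 35.2 kb against 15.4 kb. When all protein-coding genes were split into 4 classes of equal size by domain length, 0 of the 13 channel genes in class 1, with the shortest domains, had a peak (interval 0.0 to 22.8%), compared with 4.55% of the other genes of that class. In class 2, 2 of 16 channel genes had a peak (12.5%, interval 3.50 to 36.02%) against 9.32% of other genes. In both classes the share of other genes lies within the interval of the channel genes. In class 3, with domains from 89.5 to 213.5 kb, 12 of 36 channel genes had a peak (33.3%, interval 20.2 to 49.7%) compared with 18.01% of other genes (interval 17.02 to 19.04%). In class 4, with the longest domains, it was 26 of 57 (45.6%, interval 33.4 to 58.4%) against 33.6% (interval 32.4 to 34.9%). The intervals of channel and other genes do not overlap in class 3 and overlap narrowly in class 4. They treat genes as independent, but in class 3 *Kcnk5* and *Kcnk16* are both counted through the same peaks. Within class 4 the channel genes still had the longer domains, with a median of 618.7 kb against 423.2 kb.

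At the shares that other genes had in each of the 4 classes, 27.7 of the 122 channel genes (22.7%) would have had a peak, and at their shares in 10 classes of domain length 28.9 (23.7%) would have. The observed 40 lies above both numbers, and the share at other genes' rates lies below the interval of the observed share. For the 96 *Kcn* genes the numbers were 22.3 with 4 classes and 23.2 with 10, with 31 observed, and for the 26 *Cacn* genes 5.45 and 5.7, with 9 observed. The *Kcn* share at other genes' rates, 23.2% with 4 classes and 24.2% with 10, lies just below the observed interval (23.8 to 42.2%) with 4 classes and within it with 10, a number chosen after seeing the data. Both *Cacn* shares lie within the observed interval of these genes.

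**Figure D1:**
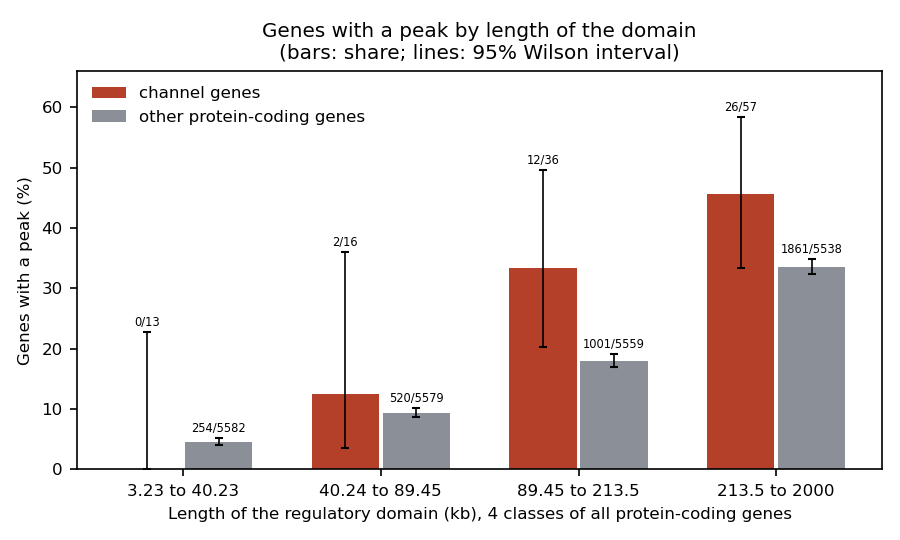
Share of genes with a *Paupar* peak in their regulatory domain (y axis, percent) by the length of that domain (x axis, kb, 4 classes of all protein-coding genes), for channel genes and other protein-coding genes. Bars give shares, lines 95% Wilson intervals and labels the genes with a peak of all genes. In the 2 longer classes the channel genes sit at 33.3% and 45.6% and the other genes at 18.01% and 33.6%, and in the shortest class 0 of 13 channel genes had a peak.

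Counted by length, the domains of channel genes held 72 gene-peak pairs in 46.7 Mb, or 1.54 pairs per Mb (exact Poisson interval 1.21 to 1.94). Other genes had 1.16 pairs per Mb. The interval treats pairs as independent, and it held the value of other genes when peaks within 10 kb were merged (1.31 pairs per Mb, interval 0.999 to 1.68, others 1.08) and with scores of at least 10 only (1.03, interval 0.758 to 1.36, others 0.822). It excluded that value when no domain was extended beyond 100 kb (2.26, interval 1.59 to 3.12, others 1.502). Over all their domains *Kcn* genes had 1.26 pairs per Mb and *Cacn* genes 3.15. The calcium channel value rests on few genes, as 15 of its 22 pairs belong to *Cacna1b*, *Cacna1e*, *Cacna1i* and *Cacng5*. In class 4 of domain length, *Kcn* genes had 0.895 pairs per Mb, *Cacn* genes 3.36 and other genes 0.948. In class 3, *Kcn* genes had 3.53, *Cacn* genes 3.49 and other genes 1.63. That *Kcn* value counts the same 3 peaks for both *Kcnk5* and *Kcnk16*. In class 2, *Kcn* genes had 6.555, a value that rests on 2 of 10 genes, *Cacn* genes had 0.0 and other genes 1.785. In class 1 no channel gene had a pair. The 72 pairs come from 67 distinct peaks, of which 61 also lie in the domain of a gene that is not a channel gene. The list does not tell which gene, if any, such a peak acts on.

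Among the pore-forming subunits of voltage-gated calcium channels, the Cav2 family had a peak at every member. These are *Cacna1a*, *Cacna1b* and *Cacna1e*, the pores of the P/Q-, N- and R-type channels that trigger transmitter release at nerve terminals. Their domains are long, 386.5, 438.0 and 893.5 kb, and lie in class 4 of domain length, where 33.6% of other genes had a peak. *Cacna1b* (ENSMUSG00000004113) had 4 peaks. The one at chr2:24488039-24490376 is 2338 bp wide and lies in an intron, 129465 bp downstream of the gene start. Its score of 52.03 is the highest among the channel peaks and ranks 67 in the whole list. A smaller peak lies 300 bp beside it in the same gene (score 8.94). The other 2 lie outside the gene, 119071 bp upstream in an intron of *Ehmt1* (score 17.4) and 187251 bp downstream (score 8.52). *Pax8* also has the 3 downstream peaks in its domain. The central 300 bases of the peak with the highest score, chr2:24489058-24489357 on the plus strand, are printed with their longest exact match to a capture oligonucleotide in capitals, 8 nt that equal bases 9 to 16 of PauparCHART254.
Cacna1b intron peak: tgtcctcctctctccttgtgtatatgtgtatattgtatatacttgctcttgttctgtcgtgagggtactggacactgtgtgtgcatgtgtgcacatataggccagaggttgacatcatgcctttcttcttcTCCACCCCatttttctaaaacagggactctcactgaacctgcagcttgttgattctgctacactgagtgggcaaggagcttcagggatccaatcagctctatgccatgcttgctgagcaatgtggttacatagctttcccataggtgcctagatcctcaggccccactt

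*Cacna1e* (ENSMUSG00000004110) had 3 peaks, all intergenic and all upstream. A pair of them, with scores of 19.78 and 13.09, lies 963 bp apart at 363203 and 360674 bp from the gene start, and the remaining one lies 217487 bp upstream with a score of 6.18, the lowest of all channel peaks. The start of *Ier5* is nearer to each of these peaks than that of *Cacna1e*. *Cacna1a* had 1 peak, in its own intron 216468 bp downstream of the start, with a score of 10.03. So the Cav2 genes shared the presence of peaks but not their position, which was intronic in *Cacna1a*, mixed in *Cacna1b* and intergenic in *Cacna1e*.

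The low-voltage-activated Cav3 family, the T-type channels, had peaks at 1 of 3 members. *Cacna1i* (ENSMUSG00000022416) held 5, as many as any channel gene. There were 3 in its introns, between 30592 and 45559 bp downstream of the start, with scores of 11.29, 10.4 and 11.76, and 2 lay 223 bp apart in an intron of the neighbouring gene *Enthd1*, with scores of 8.28 and 25.33. *Cacna1g* and *Cacna1h*, the other T-type pores, had no peak in domains of 87.2 and 96.3 kb. The L-type family Cav1 had 0 of 4 (*Cacna1c*, *Cacna1d*, *Cacna1f* and *Cacna1s*). Their domains were short, from 27.4 to 115.0 kb, although *Cacna1c* and *Cacna1d* are long genes. *Cacna1c* does hold a peak between its start and end, 110547 bp downstream of the start with a score of 16.65, but this lies outside its 55.3 kb domain.

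Auxiliary calcium channel subunits had peaks at 5 of 16 genes (31.25%, interval 14.2 to 55.6%). This interval holds the 16.4% of all protein-coding genes and the 33.6% of other genes in class 4 of domain length. Of the alpha2delta subunits, which promote surface expression of the pore, *Cacna2d2* had 2 peaks, at 38264 bp upstream (score 9.0) and in an intron 52111 bp downstream (score 9.83), and *Cacna2d4* had 1 in an intron 20479 bp downstream (score 9.07), while *Cacna2d1* and *Cacna2d3* had none. In the gamma family, whose members include transmembrane regulators of AMPA receptors, 3 of 8 genes had peaks. *Cacng2*, stargazin, had 1 intronic peak 10429 bp from its start (score 6.87), and *Cacng3* had 2, the nearer one in an intron 20746 bp from its start (score 8.18). *Cacng5* had 3, all upstream and all in introns of *Prkca*, with scores of 6.26, 10.29 and 11.28. The scores of all these auxiliary subunit peaks lay below the median of the whole list, 12.69.

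None of the 4 Cav beta genes, the cytoplasmic subunits that bring the pore to the membrane, had a peak in its domain. *Cacnb1* shows how this depends on the borders of a domain. A peak with a score of 19.12 (chr11:97880710-97881436) lies 3275 bp downstream of its start, and *Cacnb1* is the gene with the nearest start, but its domain ends 1000 bp downstream of the start where it meets the interval of a neighbouring gene. When only genes whose start lies on that side limit the domain, *Cacnb1* is the 1 channel gene that is added, and the count becomes 41.

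Voltage-gated potassium channel pores had peaks in some families and not in others. The Kv1 (Shaker-type) family had 2 of 8, Kv7 2 of 5, the EAG family 2 of 9, and the modifier subunits, which do not form channels alone but join other voltage-gated subunits, 2 of 10. The interval of each of these families holds the 16.4% of all protein-coding genes. The Kv3 family had 0 of 4 (interval 0.0 to 48.99%) and the Kv4 family 0 of 3 (interval 0.0 to 56.15%), and with so few genes both intervals hold the 16.4% of all genes and the 33.6% of other genes in class 4. These are the pores of the fast delayed rectifiers that allow rapid firing (*Kcnc1* to *Kcnc4*) and of the A-type currents of dendrites (*Kcnd1* to *Kcnd3*). Their domains were not short throughout: that of *Kcnd2* was 1636 kb, of *Kcnc2* 763.4 kb and of *Kcnd3* 618.7 kb. Together with Cav1, Cav beta and the KChIP proteins, which are the calcium-binding partners of Kv4, 5 of 21 families with 19 genes in all had no peak in a domain.

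Only 2 of the 122 channel genes (1.64%) had a peak of their domain within 5 kb of the gene start, compared with 2.23% of all protein-coding genes. *Kcnh2* (ENSMUSG00000038319), the EAG family pore of the rapid delayed rectifier current of the heart, had one at chr5:23853164-23854072, in an intron 3804 bp downstream of the start, with a score of 12.21. It also had a much wider one, 2353 bp, 160155 bp downstream beyond the gene, with a score of 36.84 that ranks 159. The start of *Nupl2* is nearer to this second peak. *Kcna5* (ENSMUSG00000045534), a Shaker-type pore, had its only peak at chr6:126489744-126490095, in intergenic sequence 4346 bp upstream of the start, with a score of 10.51. It is the sole channel peak upstream within 5 kb, and no other gene has it in its domain. Its central 300 bases, chr6:126489770-126490069 on the plus strand, show only a short match to a capture oligonucleotide, 7 nt in capitals, the reverse complement of bases 5 to 11 of PauparCHART2041.
Kcna5 upstream peak: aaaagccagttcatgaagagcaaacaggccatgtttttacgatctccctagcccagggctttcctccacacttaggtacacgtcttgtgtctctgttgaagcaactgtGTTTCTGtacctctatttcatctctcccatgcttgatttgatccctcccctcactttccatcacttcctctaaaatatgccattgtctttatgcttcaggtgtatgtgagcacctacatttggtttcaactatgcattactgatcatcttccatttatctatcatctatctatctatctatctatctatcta

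In the Kv7 family, *Kcnq1*, a cardiac and epithelial pore, had an intronic peak 277399 bp from its start (score 17.43). Of the modifier subunits, *Kcns3* had a pair 339 bp apart at 188018 and 189130 bp downstream, with scores of 36.57 (rank 161) and 20.47, and *Kcns2* had 1 peak 106867 bp upstream (score 10.55). *Kcna4* and *Kcnh7* each had 1 distant upstream peak, at 140528 and 595408 bp, with scores of 6.58 and 9.36. Among the voltage-gated pores of potassium channels, the distance between a gene start and its peaks thus ran from 3804 bp at *Kcnh2* to 595408 bp at *Kcnh7*.

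Inward rectifiers (Kir), which set the resting potential, had peaks at 5 of 15 genes (33.3%, interval 15.2 to 58.3%), and each of the 5 had more than 1. This interval holds the 16.4% of all protein-coding genes and the 33.6% of other genes in class 4 of domain length. *Kcnj15* (ENSMUSG00000062609) had 5, from 165616 bp upstream to 130638 bp downstream, with scores between 10.47 and 17.08. *Kcnj6* (ENSMUSG00000043301), a G protein-gated inward rectifier of neurons, lies next to it on chromosome 16 and had 3, and 2 of the peaks (scores 11.24 and 15.22) lie between these neighbours in both domains. The peak that belongs to *Kcnj6* but not to *Kcnj15* is intronic, 7698 bp from the start, with a score of 8.15. *Kcnj12* had a pair in its own intron, 289 bp apart, at 18524 and 19630 bp from the start, with scores of 12.87 and 9.17. *Kcnj4* had a pair 253 bp apart at 40885 and 42541 bp downstream, with scores of 7.97 and 17.38. The peaks of *Kcnj2*, a strong inward rectifier of heart and muscle, were the most distant of all, 662445 and 995858 bp downstream of its start.

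The K2P family, which carries background leak currents, had the largest number of pore genes with a peak, 6 of 14 (42.9%, interval 21.4 to 67.4%). The share of all protein-coding genes was 16.4%. In classes 3 and 4 of domain length, 18.01% and 33.6% of other genes had a peak, and of these the interval holds only 33.6%. A cluster of 3 peaks on chromosome 14 lies between *Kcnk16* (ENSMUSG00000023387) and *Kcnk5* (ENSMUSG00000023243), in the domains of both, and these are the only genes that have it in their domain. The peaks at chr14:21074731-21075279 and chr14:21075845-21077552 had scores of 48.98 and 47.5 (ranks 76 and 79), the next among the channel peaks after that of *Cacna1b*, and the one beside them a score of 22.43. They lie 11686 to 15377 bp downstream of the start of *Kcnk16*, beyond the end of this 6.41 kb gene, and 72003 to 75694 bp upstream of *Kcnk5*. Since both genes draw on the same peaks, they are not separate observations. *Kcnk1* (ENSMUSG00000033998) had 3 intergenic peaks on chromosome 8, at 36972 bp upstream and at 59461 and 125859 bp downstream, with scores of 13.05, 15.14 and 14.36, and it was the nearest gene to all 3. *Kcnk15* had 1 peak 15031 bp upstream (score 26.94), *Kcnk9* 1 peak 283378 bp downstream (score 32.64) and *Kcnk2* 1 peak 252196 bp upstream (score 8.98).

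The calcium- and sodium-activated channels, grouped here with their relative *Kcnu1*, had peaks at 3 of 8 genes (37.5%, interval 13.7 to 69.4%). This interval holds the 16.4% of all protein-coding genes. *Kcnu1*, the pH-sensitive channel of sperm, had 2 peaks, both in introns of the adjacent *Ash2l*, at 8123 bp upstream with a score of 39.88 (rank 125) and at 31238 bp upstream with a score of 12.07. *Kcnt1*, a sodium-activated channel of neurons, had the only channel peak whose midpoint lies in coding sequence (score 9.06, 43727 bp downstream of the start). *Kcnma1*, the pore of the large-conductance BK channel, had 1 peak 642168 bp downstream (score 7.19), and the small-conductance channels *Kcnn1* to *Kcnn4* had none.

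Auxiliary potassium channel subunits had peaks at 8 of 17 genes (47.1%, interval 26.2 to 69.0%), compared with 23 of 79 pores (29.1%, interval 20.25 to 39.9%), and these intervals overlap. Both lie above the 16.4% of all protein-coding genes and hold the 33.6% of other genes in class 4 of domain length. Of the BK beta subunits, which tune the calcium sensitivity of *Kcnma1* channels, 3 of 4 had a peak. *Kcnmb2* had 2 (31383 bp upstream and intronic, with scores of 11.69 and 13.22), and *Kcnmb4* and *Kcnmb1* had 1 each (scores 8.06 and 8.0), while *Kcnmb3* had none. The *Kcnmb1* peak lies in an intron of *Kcnip1*, whose own domain does not reach it. The single-span KCNE subunits had 3 of 5, with *Kcne1*, the partner of *Kcnq1* in the heart, 53560 bp from a peak with a score of 31.24 in *Rcan1*, and *Kcne2* and *Kcne4* at 194041 and 148336 bp from theirs (scores 8.42 and 14.45). *Kcnab2*, a Kv beta subunit, had the widest channel peak, 3512 bp, in intergenic sequence 95809 bp upstream with a score of 19.46, and *Kcnab1* and *Kcnab3* had none. *Kcnrg*, a cytoplasmic protein that hinders the assembly of voltage-gated channels, had 1 peak 6735 bp upstream, in an intron of *Trim13* (score 9.97).

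**Figure D2:**
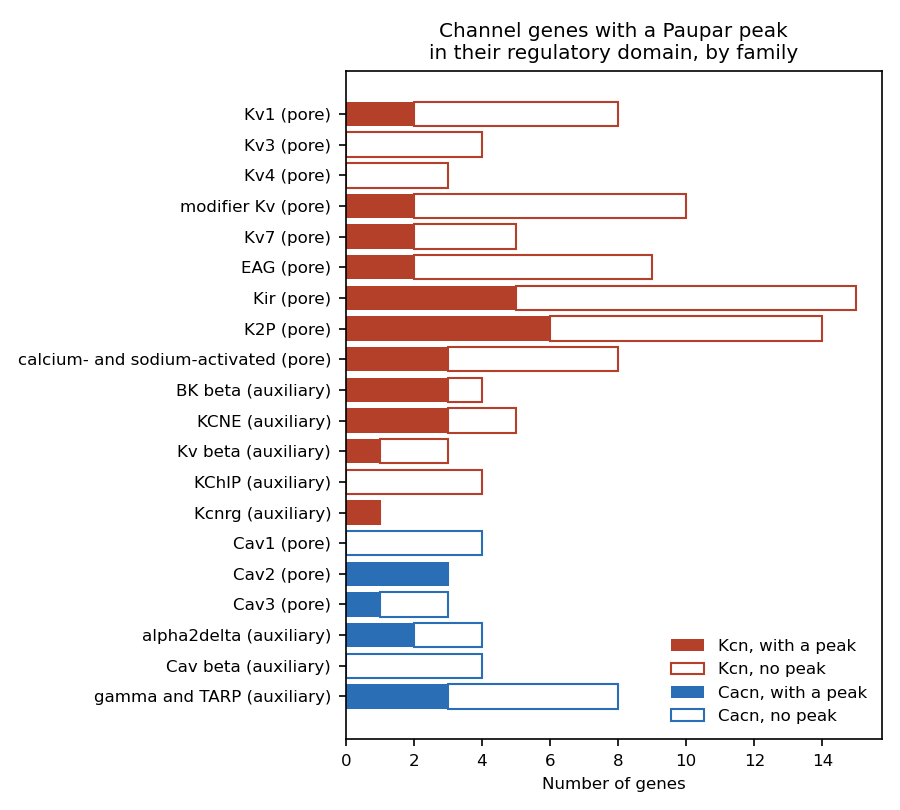
Number of potassium (*Kcn*) and calcium (*Cacn*) channel genes (x axis) with and without a *Paupar* peak in their regulatory domain, for 20 of the 21 families (y axis, with the role of the members). The Cav2 bar is filled for 3 of 3 genes, and the bars of Kv3, Kv4, KChIP, Cav1 and Cav beta are empty.

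The voltage-gated sodium channel genes, a neighbouring class of 14 *Scn* genes, had peaks at 8 (57.1%, interval 32.6 to 78.6%), with 7 distinct peaks between them. Their median domain was 215.5 kb, and 16.4% of all protein-coding genes had a peak. The interval overlaps that of the potassium and calcium channel genes, and the difference between the 2 shares was not tested. None of the sodium channel genes had 3 or more peaks.

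Peaks of channel genes lay mostly at a distance from the gene starts. Over the 72 pairs the median distance was 95028 bp, compared with 64430 bp for the pairs of other genes, and 2.78% of the pairs were within 5 kb against 9.99%. The median distance to the nearest peak over the 40 genes was 58404 bp (95% interval 31383 to 119071 bp), which holds the median of other genes, 44226 bp. Channel domains are longer, and when no domain was extended beyond 100 kb these medians were 25669 and 24954 bp. Upstream pairs were 30 of 72 (41.7%, against 49.1% for other genes), and the channel gene was the one with the nearest start in 36 of the 72, against 51.7%. By annotation, 36 of the 67 peaks were intergenic, 18 lay in an intron of a channel gene, 12 in an intron of another gene and 1 in coding sequence. Intergenic sequence thus held 53.7% of the channel peaks and introns 44.8%, compared with 49.7% and 43.9% of the other peaks. Pairs with the peak inside the gene itself were 18 of 72 for channel genes (25.0%), near the 21.6% of other genes, with 10 of 22 for calcium and 8 of 50 for potassium channel genes.

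**Figure D3:**
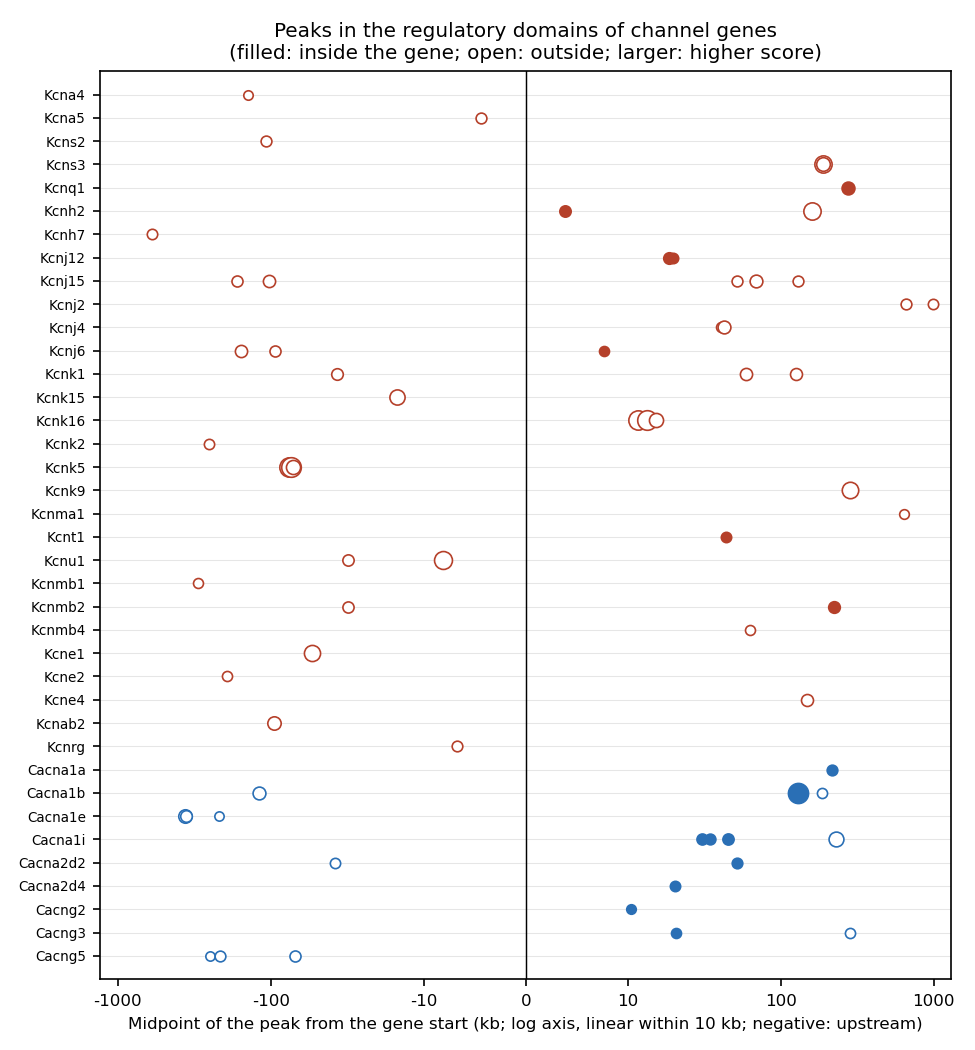
Distance from the gene start to the midpoint of each peak in the domain (x axis, kb, log scale beyond 10 kb, negative upstream) for 38 of the 40 channel genes with a peak (rows). Filled points lie inside the gene, open points outside, and larger points have higher scores. The points nearest to the start are those of *Kcna5* at -4346 bp and *Kcnh2* at 3804 bp, and most others lie beyond 10 kb.

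A count of peaks between the start and the end of each gene, without regard to domains, gave 19 channel genes (15.6%, interval 10.2 to 23.05%), against 5.04% of all protein-coding genes. Channel genes are longer, and per Mb of gene they had 1.59 peaks, other genes 1.36. For *Cacn* genes the value was 2.55 (12 peaks in 4.71 Mb) and for *Kcn* genes 1.13 (11 peaks in 9.78 Mb). Of the 23 peaks inside channel genes, 5 lay outside the domain of that gene, in *Cacna1c*, *Cacnb1*, *Kcnip1*, *Kcnip3* and *Kcnu1*. The first 4 of these genes are counted above as without a peak. The number of genes without a peak in their domain is therefore not the number of channel genes free of *Paupar* peaks.

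The 67 channel peaks had scores from 6.18 to 52.03 with a median of 11.24, and the other 2782 peaks a median of 12.71. At least 10 was reached by 43 channel peaks (64.2%) and by 70.9% of the others. Channel peaks thus had a slightly lower median score than the rest of the list. They were somewhat wider, with a median of 662 bp against 555 bp, and 18 of them (26.9%) exceeded 1 kb, compared with 17.5% of the others. Another listed peak lay within 10 kb of 17 of the 67 channel peaks (25.4%, interval 16.5 to 36.9%) and of 353 of the 2782 others (12.7%, interval 11.5 to 13.98%). These intervals treat peaks as independent, which they are not, since peaks near each other are all counted. The difference was not tested.

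**Figure D4:**
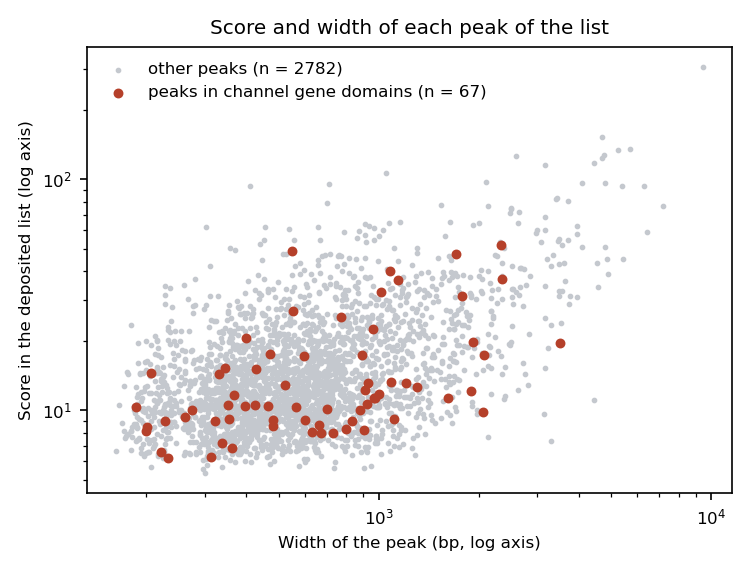
Score (y axis, log scale, as deposited) against width (x axis, bp, log scale) of each of the 2849 peaks, with the 67 peaks in channel gene domains on top of the other 2782. Channel peaks fall within the cloud of the others, up to a score of 52.03 and a width of 3512 bp, and the highest score of the list, 305.37, is at another gene.

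By chromosome, the numbers of channel genes are small and the shares of other genes also differ. All 4 channel genes on chromosome 16 had a peak (*Kcnj6*, *Kcnj15*, *Kcne1* and *Kcne2*), as did 5 of 9 on chromosome 15, 7 of 13 on chromosome 2, 4 of 6 on chromosome 14 and 3 of 5 on chromosome 8. The shares of other genes on these chromosomes were 19.25, 22.6, 19.1, 9.61 and 27.9%. Chromosome 7 had 2 of 13, against 9.71% of other genes. None was found for the 5 channel genes on chromosome 17, the 5 on 19, the 2 on 18 and the 3 on X, where 11.2, 16.3, 14.8 and 4.31% of other genes had one. Neighbours such as *Kcne1* and *Kcne2* or *Kcnk5* and *Kcnk16* lie in one region, so that genes of a chromosome are not independent of each other.

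Exact matches of at least 10 nt to a *Paupar* capture oligonucleotide, on either strand, were found in 17 of the 67 channel peaks (25.4%, interval 16.5 to 36.9%). The regions of the same width directly beside these peaks held one in 18 of 134 (13.4%, interval 8.67 to 20.2%), with 13 of these regions overlapping another listed peak. Over all peaks the shares were 24.6% in peaks and 10.2% beside them. At this length the share of channel peaks with a match was close to that of the whole list. Matches were counted over whole peaks, and no allowance was made for the greater width of channel peaks. The intervals of channel peaks and of the regions beside them overlap. PauparCHART254 gave 8 of the 17, PauparCHART2041 6 and PauparCHART2067 3, and PauparCHART428 gave 0 of 67 channel peaks against 6.11% of all peaks. The *LacZ* oligonucleotide had no match of this length in the 67 channel peaks. It matched 0.281% of all peaks and 0.386% of the regions beside them. It is a single sequence, and each *Paupar* oligonucleotide alone matched from 5.55 to 8.21% of all peaks.

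The longest matches in channel peaks were 11 nt, in 3 of 67 peaks (4.48%), whereas 7.37% of all peaks had a match of at least 11 nt. They are shown with 15 bases on each side, on the plus strand of mm9, the match in capitals. That of *Kcnq1* (chr7:150570761-150570801) equals bases 13 to 23 of PauparCHART254. That of *Cacna1b*, in its upstream peak (chr2:24737874-24737914), is the reverse complement of bases 1 to 11 of PauparCHART2041, and that of *Cacng5* (chr11:108025607-108025647) the reverse complement of bases 12 to 22 of PauparCHART254.
Kcnq1: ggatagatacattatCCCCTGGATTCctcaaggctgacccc
Cacna1b: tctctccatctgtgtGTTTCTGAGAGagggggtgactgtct
Cacng5: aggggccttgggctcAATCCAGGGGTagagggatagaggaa
The matches of *Kcnq1* and *Cacng5* share 10 letters of the same oligonucleotide and stand on opposite strands. The scores of these 3 peaks were 17.43, 17.4 and 6.26. The 17 channel peaks with such a match of 10 nt or more had a median score of 12.07, those without one 10.49, and over all peaks these medians were 12.98 and 12.6. Of the 10 channel peaks with the highest scores 2 had one. The peaks of *Cacna1b*, *Kcnk16* and *Kcnk5* with the highest scores did not.

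**Figure D5:**
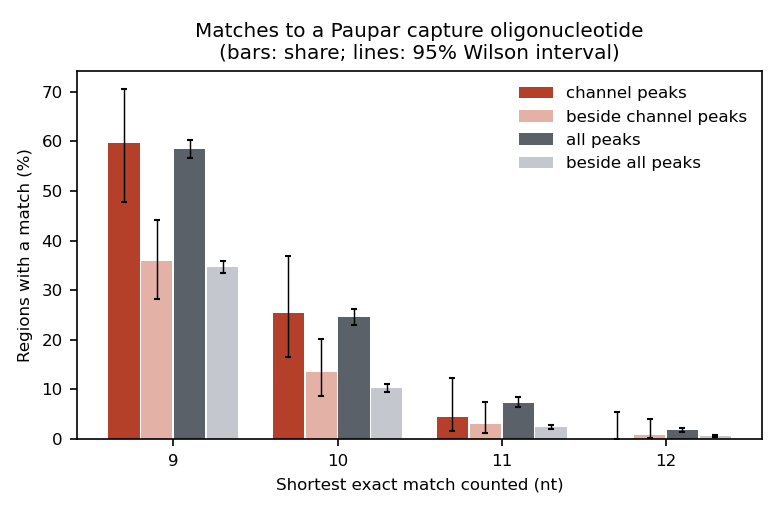
Share of regions (y axis, percent) that hold an exact match to any of the 4 *Paupar* capture oligonucleotides, by the shortest match counted (x axis, nt), in channel peaks, in regions of the same width beside them, and in all peaks and the regions beside those. Bars give shares and lines 95% Wilson intervals. At 10 nt the bars stand at 25.4, 13.4, 24.6 and 10.2%, and at 12 nt none of the 67 channel peaks has a match.

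Short motifs of known factors were also counted over whole peaks on both strands. CACCCC, the core of the CACC box bound by Krüppel-like factors and part of PauparCHART254, was present in 35 of 67 channel peaks (52.2%) and in 52.8% of all peaks, compared with 35.1% and 35.9% of the regions beside them. GGGCGG, the GC box of Sp factors, was present in 14.9% of channel peaks and 13.4% of all peaks, and in 10.4% and 12.9% of the regions beside them. CAGCTG, an E-box of neural bHLH factors, had 31.3% and 31.4%, and the regions beside them 37.3% and 27.7%. For these 3 motifs the shares in channel peaks were close to those in all peaks, without allowance for the greater width of channel peaks. ATGCAAAT, the octamer of POU factors, was in 3 channel peaks (4.48%, against 2.91% of all peaks), those of *Cacna1e*, *Kcnh2* and *Cacna2d2*. The regions beside channel peaks held it in 0.746% and those beside all peaks in 4.11%, more often than all peaks themselves.

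The repressor REST binds a long element in many neuronal ion channel genes, and the left and right parts of its site were searched as TTCAGCACC and GGACAGC. The left part was found in 1 channel peak, the intronic one of *Kcnmb2* (1.49%, against 1.09% of all peaks). The right part was in 9 channel peaks (13.4%, against 12.95% of all peaks and 21.6% of the regions beside channel peaks), among them those of *Cacna1e*, *Cacna1i*, *Kcns3* and *Kcnt1*. No channel peak held both. The median GC content of channel peaks was 48.55%, that of the other peaks 48.1%, and that of the regions beside channel peaks 46.6%. A match is a stretch of letters, and no binding of these factors was measured in the files analysed here.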

How the data were processed

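Per the labels and the study's methods, the authors aligned the read pairs to mm9 using Bowtie, ran MACS2 on both *Paupar* pull-downs, with the *LacZ* pull-downs and the input DNA as separate controls, and kept peaks found with both kinds of control. The methods name a filter of −log10 q above 5 on the calls, and the lowest deposited score is 5.34, but the list does not name the unit of the score, which was used for ranking and filtering only. How the calls of the 2 pull-downs were joined is not given in the sources used here. Genes, domains, features and sequence were taken from NCBIM37 with GENCODE vM1. The distance of a pair is that from gene start to peak midpoint. The genes with 3 or more peaks, with a peak within 5 kb, with the 6 highest scores, 3 widest peaks and 3 longest matches, the gene with the nearest peak in each family and every member of a family of at most 4 were named, with further genes with a peak named after their values were seen. Of the genes under this rule, 2 are counted but not reported here by name. The rule on symbols uses no measured value, but the gene set, the families and the motifs were taken up with earlier results of these data known. No test was made, since the list holds no libraries. The assignment of peaks to genes and the search for oligonucleotide matches were tested on simulated data, and the other steps were not. Python 3.11.15, pandas 2.3.3, scipy 1.17.1, statsmodels 0.14.6 and pysam 0.24.0 were used.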

Additional observations from a re-analysis of the deposited data

How the results depend on the processing

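The share of channel genes with a peak exceeded that of other genes in 10 of 11 alternatives, and fell below it when the domain was cut to 5 kb upstream and 1 kb downstream of the start, with 1 gene (0.820%) against 1.72%. With peaks of a score of at least 10 it was 22.1% (others 12.6%), with the nearest gene start only 18.9% (23 genes, others 9.91%), with domains extended by at most 100 kb 19.7% (24 genes, others 11.8%), and with peaks between the gene's start and end, an alternative chosen after seeing the data, 15.6% (19 genes, others 4.98%). The remaining alternatives, among them a second one chosen after seeing the data (the limits of domains), gave 27 to 41 genes. With 10 classes of domain length, also chosen after seeing the data, 28.9 genes would have had a peak at other genes' shares, and 27.7 with 4. Pairs per Mb were 1.03 with scores of at least 10 (others 0.822) and 1.31 with merged peaks (others 1.08), where both intervals hold the value of other genes, and with domains of at most 100 kb 2.26 (interval 1.59 to 3.12, others 1.502). The last setting moved the median distance to the nearest peak to 25669 bp (others 24954 bp). Matches to a capture oligonucleotide were found in 59.7% of channel peaks at 9 nt (all peaks 58.5%), 4.48% at 11 nt (7.37%) and 0.0% at 12 nt (1.755%), and in 13.4% of the regions beside them. No paired analysis was possible because the list has no values per library, and for the same reason no replicate could be left out. Families hold 1 to 15 genes, and differences between them were not tested.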
